A study of Mus musculus with 9 samples.

Results

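The machinery that brings proteins into mitochondria was followed through 36 genes, of 23936 named genes in the expression table. The members are every gene whose symbol starts with Timm or Tomm, together with Samm50, Pam16, Dnajc15, Dnajc19, Pmpca, Pmpcb, Mtx1, Mtx2, Grpel1 and Chchd4, a rule that reads names and no measured value, though it was set with earlier results of these data known. Of these, 34 reached 1 FPKM (fragments scaled by transcript length and by the size of the library) in at least 3 libraries and were tested, beside 10185 tested genes in all. The other two were Tomm20l, listed at 0 in all 9 libraries, and Timm8a2, whose highest value was 0.104 FPKM. The prefix also takes in Timmdc1, an assembly factor of respiratory complex I, Tomm34, a cytosolic cochaperone, and Tomm6os, a transcript antisense to Tomm6, none of which is a subunit of a translocase.

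The cells were OT-I CD8 T cells, mouse T cells that carry a transgenic receptor for an ovalbumin peptide. Naive OT-I cells from the spleen, spleen-primed OT-I cells from the spleen and MLN-primed OT-I cells from the MLN (the mesenteric lymph node, which drains the gut) gave 3 libraries each. Sample titles add "iv" to the spleen-primed and "oral" to the MLN-primed cells, so organ and this word change together and cannot be told apart. MLN-primed and naive cells differ in organ as well as in priming, which cannot be told apart in that comparison either. The time after priming, the host mice, their age, the antigen, the sorting gate and whether libraries came from separate animals are not stated in the labels. The p-values therefore rest on the spread among the deposited libraries, part or all of which may be technical. The series title asks how retinoic acid signalling during priming bears on intestinal resident memory CD8 T cells, and the comparison of the primed groups belongs to that question.

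Nearly all mitochondrial proteins are made in the cytosol and must be imported. The TOM complex of the outer membrane, with the channel Tomm40 and the receptors Tomm20, Tomm22 and Tomm70a, is the common entry gate. Behind it, the SAM complex inserts barrel-shaped outer membrane proteins, small Timm chaperones and the disulfide relay protein Chchd4 serve the intermembrane space, TIM22 inserts carrier proteins into the inner membrane, and TIM23 passes presequence proteins through it to an Hsp70 motor and the peptidase of Pmpca and Pmpcb that removes the presequence. T cells enlarge and remodel their mitochondria after activation.

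Libraries held an estimated 19200000 to 31400000 fragments, read from the smallest steps of low FPKM values, and summed to 613322 to 720410 FPKM. The summed level of the CD8 T cell markers Cd3d, Cd3e, Cd3g, Cd8a, Cd8b1 and Cd2 was 3274 to 3602 FPKM in naive libraries, 2339 to 2442 FPKM after priming in the spleen and 1545 to 1612 FPKM after priming in the MLN. All 5 dendritic and class II markers were detected, at 80.7 to 145 FPKM in sum in naive against 2.52 to 6.67 and 2.71 to 3.49 FPKM in the spleen-primed and MLN-primed libraries, and 4 of 5 myeloid markers were in the table, at 4.09 to 30.0, 0.436 to 2.23 and 0.145 to 0.230 FPKM. B cell markers summed to 11.1 to 14.9, 6.46 to 8.26 and 11.2 to 14.5 FPKM, nearly all of it Cd79b (means of 12.5, 7.02 and 12.3), and Pax5 was at 0 in all naive and MLN-primed libraries and at 0 to 0.103 FPKM in the spleen-primed ones. Epithelial markers summed to 0.671 to 0.828, 0.835 to 0.980 and 1.43 to 1.92 FPKM, from Epcam and Krt18, with Krt8 at 0 in all 9. The part of such cells in the changes from naive was not tested, and in bulk RNA fewer cells of a type and less RNA per cell cannot be told apart. Spleen-primed 3 and MLN-primed 1 stood apart from their groups in a trend with transcript length, with slopes of 0.0787 and -0.0897 log2 units per doubling of length. The calls that change without both are given below. Against the mean of all 9 libraries, slopes were 0.187, 0.111 and 0.182 in the naive libraries. They were -0.134, -0.11 and -0.00399 in the spleen-primed and -0.167, -0.0143 and -0.0509 in the MLN-primed libraries. Naive and primed libraries thus also differed in this trend.

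The promoters of the members that differed most between the primed groups are shown first, so that the values can be read beside them. RefSeq windows on GRCm38.p6, from 250 bases before to 50 after the start, matched 33 of 36 members (Timm21, Tomm40l and Tomm7 did not match). Windows of the top 4 members in the MLN-primed against spleen-primed comparison follow, all on the minus strand and written 5′ to 3′ in gene direction: Timm9 at chr12:71136626-71136925, Tomm40 at chr7:19715380-19715679, Chchd4 at chr6:91473374-91473673 and Timm8a1 at chrX:134541621-134541920. Capitals mark matches to CACGTG, the E-box bound by factors such as Myc, or CCAAT on either strand.
Timm9: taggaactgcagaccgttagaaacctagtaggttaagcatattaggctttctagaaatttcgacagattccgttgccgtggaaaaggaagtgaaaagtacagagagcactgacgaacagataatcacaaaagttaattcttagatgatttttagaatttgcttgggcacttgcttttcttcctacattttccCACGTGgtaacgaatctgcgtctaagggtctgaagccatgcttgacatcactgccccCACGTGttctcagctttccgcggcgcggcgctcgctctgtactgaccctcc
Tomm40: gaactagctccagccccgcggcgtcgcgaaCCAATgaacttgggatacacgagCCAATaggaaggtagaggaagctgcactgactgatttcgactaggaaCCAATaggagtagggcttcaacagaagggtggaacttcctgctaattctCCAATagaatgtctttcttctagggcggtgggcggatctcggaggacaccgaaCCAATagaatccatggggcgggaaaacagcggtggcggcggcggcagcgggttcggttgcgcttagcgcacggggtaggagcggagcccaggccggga
Chchd4: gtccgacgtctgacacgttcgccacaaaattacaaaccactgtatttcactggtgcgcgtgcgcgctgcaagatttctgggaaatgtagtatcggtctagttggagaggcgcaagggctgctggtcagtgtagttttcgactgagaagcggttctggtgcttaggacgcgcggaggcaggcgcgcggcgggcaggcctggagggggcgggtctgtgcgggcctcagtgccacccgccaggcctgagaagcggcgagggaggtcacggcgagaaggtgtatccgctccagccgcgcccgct
Timm8a1: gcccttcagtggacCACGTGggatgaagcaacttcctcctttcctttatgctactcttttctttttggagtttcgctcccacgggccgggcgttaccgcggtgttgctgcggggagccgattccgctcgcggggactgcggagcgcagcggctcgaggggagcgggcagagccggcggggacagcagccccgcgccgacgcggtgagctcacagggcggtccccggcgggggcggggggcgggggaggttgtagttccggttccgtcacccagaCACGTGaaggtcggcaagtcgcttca

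Timm9 and Timm8a1 each held 2 copies of CACGTG, Tomm40 held 5 of CCAAT, and Chchd4 held no exact match to any of the 4 motifs searched. The other motifs were CCGGAAG, a core read by ETS factors, and a palindromic form of the NRF1 site, both searched on both strands. Only exact matches were counted, and other forms of the NRF1 site were not searched. A count of 0 for the palindrome therefore does not show that NRF1 sites are absent, in Chchd4 or in other windows. With 1 window for each gene, CCGGAAG stood in 13 of 31 windows of tested members (41.9%), against 21.3% of 8247 windows of tested genes and 8.86% of all 32851 windows of that length. CACGTG stood in 5 of the 31 (16.1% against 10.8% and 7.15%), CCAAT in 9 (29.0% against 40.4% and 37.4%) and the exact NRF1 palindrome in 0 (against 2.33% and 0.971%). Among members higher in MLN-primed than spleen-primed cells, 8 of 18 windows held CCGGAAG (44.4%), beside 5 of 13 (38.5%) among the members not called. In the same 2 sets, CACGTG stood in 3 (16.7%) and 2 (15.4%) windows, and CCAAT in 5 (27.8%) and 4 (30.8%). These are matches of letters in a window and were not tested.

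Transcripts of the import machinery were higher in primed than in naive cells and, for a large share of members, higher again in MLN-primed than spleen-primed cells. In spleen-primed cells 27 of 34 members rose against naive and 1, Timm9, fell, where 43.1% of all tested genes were called higher and 32.7% lower (limma, Benjamini-Hochberg adjusted p under 0.05). In MLN-primed cells 33 rose and 0 fell, beside 45.5% and 33.2% of all tested genes (limma; 0 fell at an unadjusted p under 0.05). Both comparisons use the same naive libraries. MLN-primed cells were higher than spleen-primed cells in 19 members and lower in 0, beside 17.3% and 13.1% of all tested genes (limma; 0 lower at an unadjusted p under 0.05). The median change of the members was 0.58, 0.87 and 0.31 on the log2(FPKM + 1) scale in the 3 comparisons, and that of all tested genes 0.10, 0.15 and 0.03.

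Counts of members depended on scaling. Median-of-ratios scaling moved the median change of all genes from 0.10 to -0.01 in spleen-primed and from 0.15 to -0.01 in MLN-primed cells against naive, and left 25 and 31 members higher. Of all tested genes, 38.4% and 39.8% were then higher and 37.8% and 39.2% lower. Quantile normalisation left 15 higher and 3 lower (Timm9, Tomm20 and Tomm70a) in spleen-primed cells, beside 34.8% and 40.0% of all tested genes. It left 26 higher in MLN-primed cells, where 37.7% of all tested genes were higher and 40.7% lower. The rises to spleen-primed cells that it took away were those of Dnajc15, Dnajc19, Pam16, Samm50, Timm10b, Timm17b, Timm8a1, Tomm22, Tomm40, Tomm5, Tomm7 and Tomm70a. The rises to MLN-primed cells that it took away were those of Dnajc15, Timm10, Timm10b, Timm17b, Timm21, Tomm22 and Tomm7. Among all genes called in spleen-primed against naive, the higher share went from 56.8% to 46.6%. Between the primed groups 15 and 17 of the 34 members were higher and 0 lower under median-of-ratios and quantile scaling, beside 14.2% and 15.2% of all tested genes higher and 15.5% and 14.3% lower. Every MLN-primed library lay above every spleen-primed one in 24 members, beside 25.1% of all tested genes, and below in 0, beside 21.0%. Against naive, every spleen-primed library was higher in 29 members and lower in 1, beside 44.5% and 33.7% of all tested genes, and every MLN-primed library was higher in 33 and lower in 0, beside 45.8% and 34.6%.

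**Figure D1:**
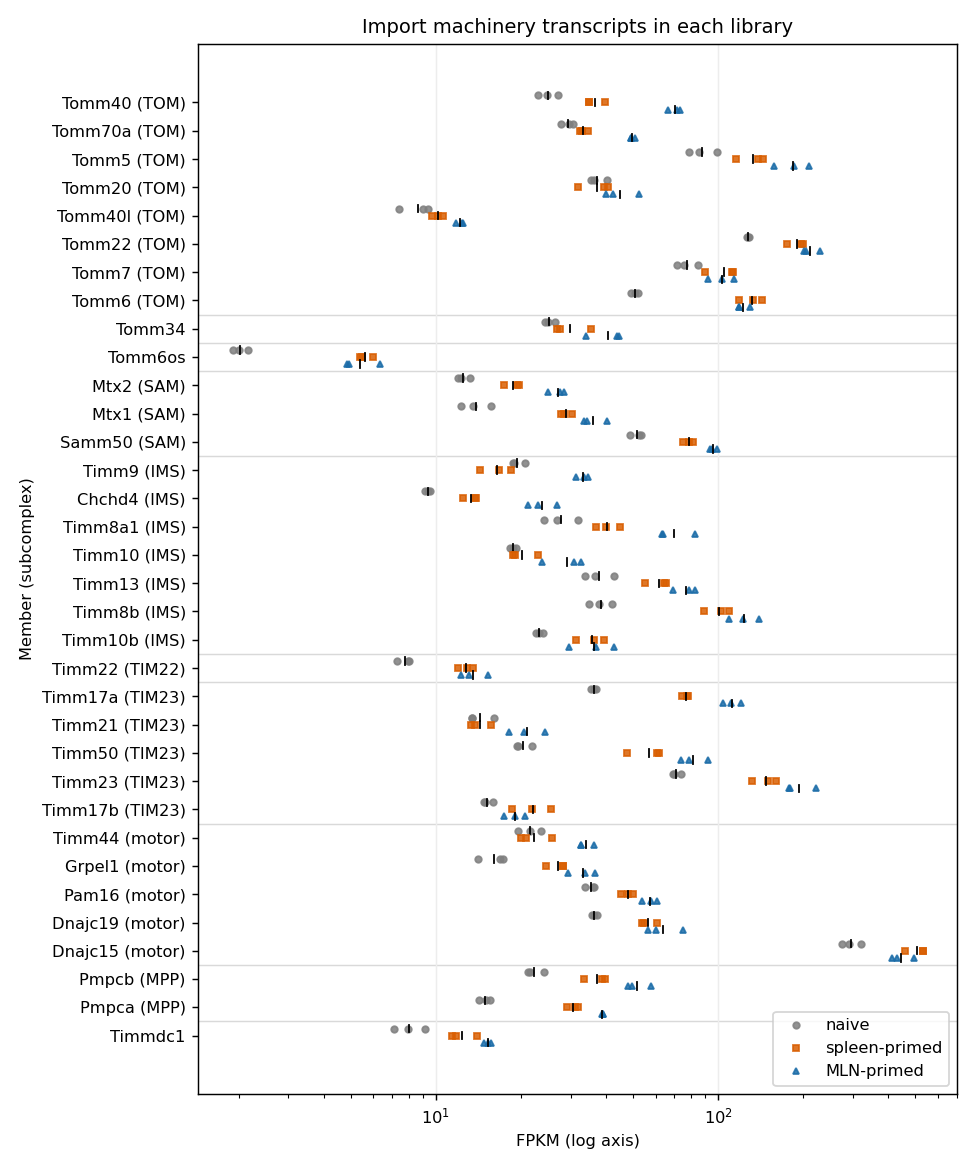
FPKM (log axis) of the 34 tested members in each library, grouped by subcomplex, with circles for naive, squares for spleen-primed and triangles for MLN-primed libraries and black ticks at group means. Dnajc15 stands highest and Tomm6os lowest, and in 33 members all 3 MLN-primed libraries lie above all naive ones.

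In the TOM complex, the channel gained most in MLN-primed cells. Tomm40, the pore itself (chr7:19701313-19715442, mm10), stood at 23.0, 24.8 and 27.1 FPKM in naive, 34.9, 34.8 and 39.6 in the spleen-primed and 71.6, 66.4 and 73.3 in the MLN-primed libraries. The 3 groups did not overlap, and each step was upward: the change was 0.53 ± 0.08 (SE, limma adjusted p = 2.14e-04) in spleen-primed against naive and 0.93 ± 0.08 (SE, limma adjusted p = 7.17e-05) in MLN-primed against spleen-primed cells. Tomm40l, its paralog, stood at 7.43, 9.40 and 9.01 FPKM in naive, 9.67, 10.6 and 10.2 in the spleen-primed and 12.5, 11.7 and 12.4 in the MLN-primed libraries without overlap. Of its changes, 0.46 ± 0.09 (SE, limma adjusted p = 0.00105) from naive to MLN-primed passed. Tomm40l shares 3304 exonic bases with Nr1i3 on the opposite strand, and the strand use in quantification is not given, so its reads are uncertain.

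Among the receptors of TOM, Tomm70a alone was called between the primed groups. Tomm70a, the receptor for carrier proteins and chaperone-bound precursors, stood at 29.5, 27.8 and 30.6 FPKM in naive, 32.3, 32.9 and 34.7 in the spleen-primed and 50.6, 49.3 and 48.9 in the MLN-primed libraries. MLN-primed libraries were above all others, with a change of 0.56 ± 0.06 (SE, limma adjusted p = 2.37e-04) from spleen-primed cells. The small rise from naive to spleen-primed, 0.18 ± 0.06 (SE, limma adjusted p = 0.0245), turned to -0.17 under quantile normalisation and did not pass under median-of-ratios scaling. It was also lost without naive 2, spleen-primed 2 or spleen-primed 3 (adjusted p 0.0519 to 0.0838) and with only the libraries compared (0.0579). Tomm20, the presequence receptor, stood at 36.2, 40.4 and 35.3 FPKM in naive, 40.8, 39.3 and 31.8 in the spleen-primed and 52.5, 39.9 and 42.3 in the MLN-primed libraries, and passed in none of the 3 comparisons. In other fits of all 9 libraries it was -0.39 (adjusted p 0.0171) in spleen-primed against naive under quantile normalisation and 0.47 (adjusted p 0.0186) in MLN-primed against naive with the length trend removed. Without spleen-primed 3 or MLN-primed 2 its change from naive to MLN-primed had an adjusted p of 0.0468 or 0.0439. Its groups overlapped, and its changes against naive were 0.00 and 0.25. Tomm22, the central receptor and organiser, had means of 127, 191 and 211 FPKM, naive first and MLN-primed last. It rose in both primed groups, by 0.58 and 0.72, values that became -0.01 and 0.07 under quantile normalisation, where neither passed. It was not called between the primed groups.

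The small TOM subunits, which stabilise the complex, differed among themselves. Tomm5 stood at 85.7, 99.2 and 79.1 FPKM in naive, 144, 138 and 116 in the spleen-primed and 211, 157 and 185 in the MLN-primed libraries, without overlap of the groups, and was higher in MLN-primed than spleen-primed cells by 0.47 ± 0.13 (SE, limma adjusted p = 0.0193). That call was lost without spleen-primed 3, MLN-primed 1 or MLN-primed 3 (adjusted p 0.0504 to 0.058). Tomm6 stood at 49.2, 52.0 and 50.6 FPKM in naive, 143, 133 and 118 in the spleen-primed and 130, 119 and 118 in the MLN-primed libraries. Both primed groups lay above naive, by 1.36 and 1.25, and overlapped each other. Tomm6 shares 859 exonic bases with Gm21981 on the same strand, so its reads are uncertain. Tomm7 stood at 71.7, 84.5 and 75.9 FPKM in naive, 113, 112 and 90.1 in the spleen-primed and 114, 92.3 and 103 in the MLN-primed libraries. It rose in both primed groups by 0.43 and 0.41, values that became -0.10 and -0.18 under quantile normalisation. The antisense transcript Tomm6os was likewise higher in both primed groups, at 2.01, 2.16 and 1.91 FPKM in naive, 5.996, 5.49 and 5.39 in the spleen-primed and 4.92, 4.85 and 6.32 in the MLN-primed libraries, and shares 219 exonic bases with Tomm6 on the opposite strand, so their reads may not be separable.

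All 3 SAM members rose in both primed groups and were higher in MLN-primed than spleen-primed cells. Samm50, the barrel that inserts outer membrane proteins, stood at 48.7, 52.3 and 53.3 FPKM in naive, 75.1, 81.7 and 79.0 in the spleen-primed and 98.9, 94.9 and 93.2 in the MLN-primed libraries. The groups formed separate steps, with 0.28 ± 0.06 (SE, limma adjusted p = 0.00835) between the primed groups. Mtx2, a metaxin on the cytosolic face of SAM, stood at 12.3, 13.2 and 11.9 FPKM in naive, 17.4, 19.7 and 19.3 in the spleen-primed and 28.4, 27.6 and 25.0 in the MLN-primed libraries. Mtx1, the other metaxin, stood at 12.2, 13.5 and 15.7 FPKM in naive, 28.5, 30.4 and 27.7 in the spleen-primed and 40.2, 33.4 and 34.2 in the MLN-primed libraries. Neither overlapped between groups. Mtx2 was higher in MLN-primed cells by 0.50 ± 0.08 (SE, limma adjusted p = 0.00157). The difference of Mtx1, 0.30 ± 0.10 (SE, limma adjusted p = 0.0483), did not pass in fits that left out any 1 of 6 libraries in the primed groups or naive 2 (adjusted p 0.0579 to 0.133).

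The intermembrane space held the member with the largest difference between the primed groups, and the only one called in opposite directions against naive. Timm9 (chr12:71123172-71136708), which pairs with Timm10 in a ring that escorts hydrophobic carriers, stood at 20.6, 18.9 and 18.8 FPKM in naive, 16.7, 14.4 and 18.5 in the spleen-primed and 34.5, 31.2 and 33.5 in the MLN-primed libraries. All spleen-primed libraries lay below all naive ones and all MLN-primed libraries above both. The change was -0.23 ± 0.09 (SE, limma adjusted p = 0.0485) from naive to spleen-primed and 0.74 ± 0.09 (SE, limma adjusted p = 4.22e-05) from naive to MLN-primed cells. The primed groups differed by 0.97 ± 0.09 (SE, limma adjusted p = 1.10e-04), a ratio of means of 2.0. The fall against naive did not pass when any 1 library other than spleen-primed 3 was left out (-0.14 to -0.25, adjusted p 0.0519 to 0.194), and was larger under median-of-ratios scaling (-0.34, adjusted p 0.00687) and quantile normalisation (-0.47, adjusted p 7.61e-04). The rise to MLN-primed cells was 0.40 under quantile normalisation and 0.33 with the length trend removed, and passed in both. The difference between primed groups passed in all 19 alternative settings (0.87 to 1.05).

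Its partner Timm10 stood at 19.1, 18.7 and 18.3 FPKM in naive, 22.9, 18.8 and 19.0 in the spleen-primed and 32.6, 23.8 and 30.8 in the MLN-primed libraries. Spleen-primed values lay close to naive, and MLN-primed values above both, with 0.49 ± 0.12 (SE, limma adjusted p = 0.0116) between the primed groups. That call was lost without spleen-primed 2 (adjusted p 0.0514), without both spleen-primed 3 and MLN-primed 1 (0.37, adjusted p 0.051) and with no filter on low values (0.0564). Its rise from naive to MLN-primed cells, 0.60, was 0.27 (adjusted p 0.071) under quantile normalisation and 0.14 (adjusted p 0.219) with the length trend removed. Timm10b, which docks the ring at TIM22, had means of 23.2, 35.7 and 36.4 FPKM and rose by 0.59 and 0.61. Neither rise passed under quantile normalisation (0.27 and 0.24) or with the length trend removed (0.12 and 0.15). The primed groups differed by 0.02, a value at -0.03 and -0.04 under median-of-ratios and quantile scaling.

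The second ring of small chaperones is made by Timm8 and Timm13 proteins. Timm8a1 (chrX:134537256-134541670), whose human counterpart is mutated in a deafness and dystonia syndrome, stood at 31.9, 24.2 and 26.9 FPKM in naive, 44.8, 40.0 and 36.8 in the spleen-primed and 82.9, 63.2 and 63.6 in the MLN-primed libraries. Its 3 groups were separate, and MLN-primed cells exceeded spleen-primed cells by 0.76 ± 0.13 (SE, limma adjusted p = 0.00219). Timm8b stood at 42.1, 38.0 and 34.9 FPKM in naive, 109, 103 and 89.2 in the spleen-primed and 140, 109 and 122 in the MLN-primed libraries, with most of the increase already present in spleen-primed cells (1.36, against 1.66 in MLN-primed cells). MLN-primed 2 and spleen-primed 1 were level to 3 digits, and the difference between primed groups, 0.30 ± 0.11 (SE, limma adjusted p = 0.0707), did not pass. Timm13 had means of 37.8, 61.6 and 76.9 FPKM and its difference between primed groups was 0.32 ± 0.11 (SE, limma adjusted p = 0.0522).

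Chchd4 (chr6:91464276-91473423), the oxidoreductase of the disulfide relay that traps small cysteine-rich proteins in the intermembrane space, stood at 9.18, 9.36 and 9.50 FPKM in naive, 12.5, 13.9 and 13.7 in the spleen-primed and 26.9, 21.2 and 23.0 in the MLN-primed libraries. Each group lay above the one before it. The change was 0.47 ± 0.09 (SE, limma adjusted p = 0.00105) from naive to spleen-primed and 0.78 ± 0.09 (SE, limma adjusted p = 3.44e-04) from spleen-primed to MLN-primed cells. Of the 7 tested intermembrane space members, 4 were thus called higher in MLN-primed than spleen-primed cells, 3 were not called and 0 were lower.

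**Figure D2:**
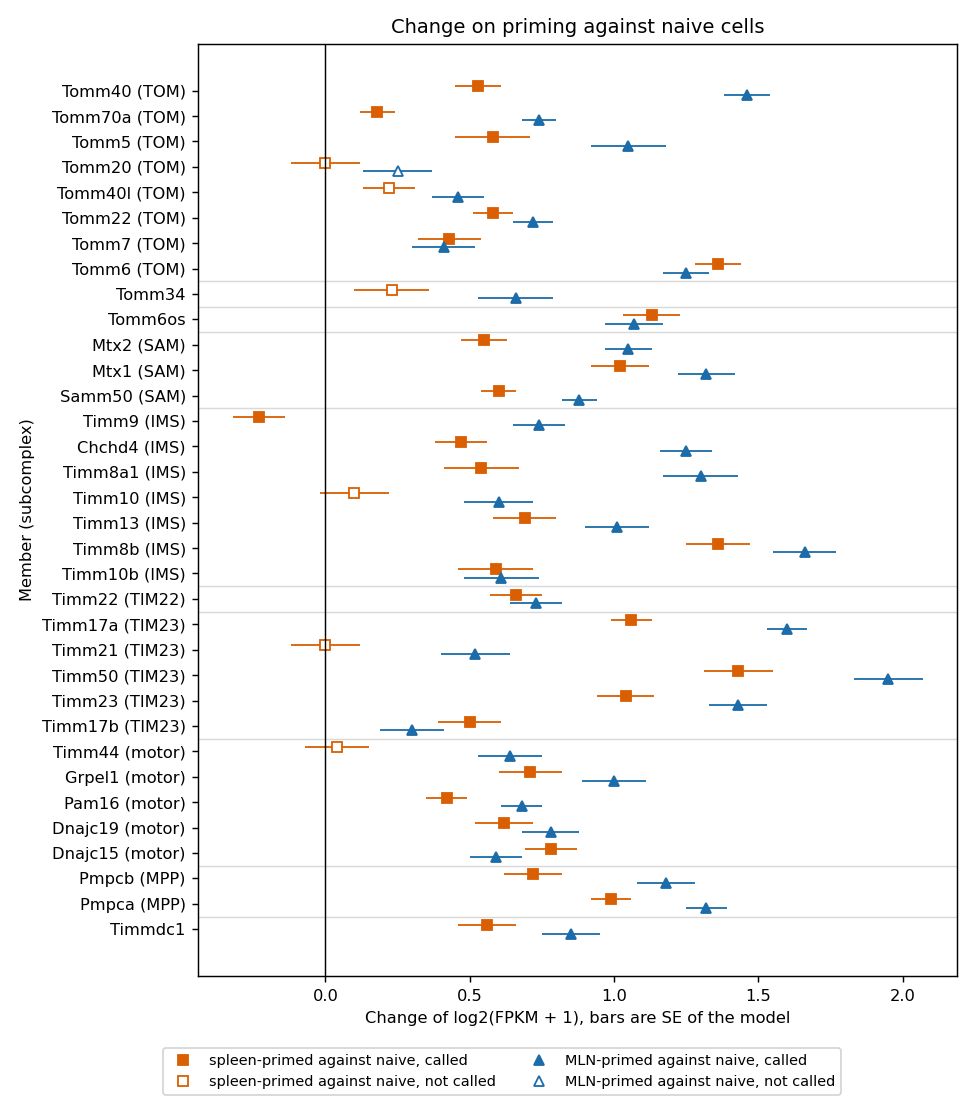
Change of log2(FPKM + 1) from naive to spleen-primed (squares) and MLN-primed cells (triangles), 3 libraries a group, with bars for the SE of the limma model and open symbols where the adjusted p was 0.05 or more. Values run from -0.23 for Timm9 in spleen-primed to 1.95 for Timm50 in MLN-primed cells; under quantile normalisation Tomm70a, Tomm22 and Tomm7 as well as Timm10, Timm21, Timm44 and Tomm34 turned below 0 in spleen-primed cells, and Tomm7 and Tomm20 in MLN-primed cells.

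In TIM22, the carrier translocase, the channel Timm22 had means of 7.74, 12.8 and 13.6 FPKM. It rose by 0.66 and 0.73 and was not called between the primed groups (0.08, and -0.01 without MLN-primed 1).

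The core of TIM23, the presequence translocase, rose most among the subcomplexes. Summed over its 5 tested members, the level was 157 ± 2.94 FPKM in naive cells, 317 ± 23.8 FPKM in the spleen-primed group and 427 ± 45.6 FPKM in the MLN-primed group (SD, n = 3). Timm50, the receptor that takes over presequences from TOM, stood at 19.3, 19.6 and 21.9 FPKM in naive, 60.8, 61.6 and 47.5 in the spleen-primed and 92.3, 74.1 and 78.6 in the MLN-primed libraries, which moved it from place 21 among the 36 members in naive cells to places 11 and 10. The groups were far apart. The change from naive was 1.43 ± 0.12 (SE, limma adjusted p = 1.75e-06) to spleen-primed and 1.95 ± 0.12 (SE, limma adjusted p = 1.37e-07) to MLN-primed cells, the largest of any tested member in both comparisons, and 0.52 between the primed groups.

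Timm23, the channel-forming subunit, stood at 73.8, 69.2 and 69.7 FPKM in naive, 160, 150 and 132 in the spleen-primed and 222, 178 and 180 in the MLN-primed libraries. Groups did not overlap, with 0.39 ± 0.10 (SE, limma adjusted p = 0.0157) between the primed groups, a call lost under median-of-ratios scaling (0.34, adjusted p 0.0601). Timm17a, the partner of Timm23 in the membrane, stood at 36.2, 36.8 and 35.5 FPKM in naive, 77.8, 74.2 and 78.0 in the spleen-primed and 120, 111 and 104 in the MLN-primed libraries. Its groups were separate, and the difference of 0.54 ± 0.07 (SE, limma adjusted p = 3.95e-04) between the primed groups passed in all 19 settings. Timm17b, the alternative partner, stood at 14.7, 16.0 and 14.9 FPKM in naive, 21.9, 25.5 and 18.6 in the spleen-primed and 20.6, 17.4 and 19.0 in the MLN-primed libraries, with the highest value in spleen-primed 2. It rose by 0.50 ± 0.11 (SE, limma adjusted p = 0.00231) after priming in the spleen and by 0.30 ± 0.11 (SE, limma adjusted p = 0.03) after priming in the MLN. The latter was lost without naive 1, naive 3, MLN-primed 1 or MLN-primed 3 (adjusted p 0.0668 to 0.0918) and fell to 0.14 and 0.06 under median-of-ratios and quantile scaling.

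Timm21, which links TIM23 to TOM and the respiratory chain, stood at 16.1, 13.4 and 13.4 FPKM in naive, 15.7, 13.3 and 13.8 in the spleen-primed and 24.3, 20.4 and 18.2 in the MLN-primed libraries. Spleen-primed and naive libraries overlapped (0.00), and all MLN-primed libraries lay above, by 0.52 ± 0.12 (SE, limma adjusted p = 0.00875) against spleen-primed cells.

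Of the import motor, Timm44 and Pam16 were called between the primed groups. Timm44, the scaffold that holds Hsp70 at the channel, stood at 19.5, 23.5 and 21.5 FPKM in naive, 20.1, 20.9 and 25.9 in the spleen-primed and 32.7, 32.7 and 36.4 in the MLN-primed libraries. Naive and spleen-primed values overlapped (change 0.04), and MLN-primed cells exceeded spleen-primed cells by 0.59 ± 0.11 (SE, limma adjusted p = 0.00278). Pam16, a regulator of the motor's J protein, stood at 33.8, 35.9 and 36.3 FPKM in naive, 49.98, 47.8 and 45.4 in the spleen-primed and 60.6, 53.8 and 57.8 in the MLN-primed libraries, in separate groups, with 0.26 ± 0.07 (SE, limma adjusted p = 0.0182) between the primed groups. Without spleen-primed 2, spleen-primed 3, MLN-primed 1 or MLN-primed 3 that adjusted p was 0.0563 to 0.0599. Grpel1, the nucleotide exchange factor of the motor, had means of 16.1, 27.0 and 33.2 FPKM and rose in both primed groups (0.71 and 1.0).

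Neither J protein of the motor, the cofactors that stimulate its Hsp70, was called between the primed groups. Dnajc15, the most abundant member in every group, stood at 274, 321 and 292 FPKM in naive, 530, 532 and 460 in the spleen-primed and 494, 413 and 430 in the MLN-primed libraries. Both primed groups lay above naive, by 0.78 ± 0.09 (SE, limma adjusted p = 3.48e-05) and 0.59 ± 0.09 (SE, limma adjusted p = 2.22e-04), and overlapped each other, with -0.19 ± 0.09 (SE, limma adjusted p = 0.17) between them. Under quantile normalisation neither rise passed, at 0.15 (adjusted p 0.0701) and 0.01 (adjusted p 0.909). Dnajc19 stood at 37.1, 35.8 and 36.4 FPKM in naive, 60.8, 54.8 and 53.7 in the spleen-primed and 75.2, 56.3 and 60.1 in the MLN-primed libraries, rose by 0.62 and 0.78, and was not called between the primed groups. With Dnajc15 its largest term, the summed motor level was 661 ± 44.5 FPKM after priming in the spleen and 634 ± 58.5 after priming in the MLN (SD, n = 3), a ratio of 0.959. The sums of TIM23, SAM, the intermembrane space and the peptidase had ratios of 1.34, 1.26, 1.36 and 1.33. Those of TOM and TIM22 were lower, at 1.18 and 1.06.

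Both subunits of the processing peptidase moved stepwise. Pmpca, the subunit that recognises the presequence, stood at 15.6, 14.2 and 15.1 FPKM in naive, 29.1, 31.8 and 31.1 in the spleen-primed and 39.0, 39.1 and 38.7 in the MLN-primed libraries. Pmpcb, the catalytic subunit, stood at 21.2, 24.1 and 21.5 FPKM in naive, 38.6, 39.8 and 33.5 in the spleen-primed and 57.7, 48.1 and 49.3 in the MLN-primed libraries. No groups overlapped in either gene. The change from spleen-primed to MLN-primed cells was 0.33 ± 0.07 (SE, limma adjusted p = 0.00419) for Pmpca and 0.46 ± 0.10 (SE, limma adjusted p = 0.00582) for Pmpcb. Pmpca shares 874 exonic bases with Inpp5e on the opposite strand. In all, 15 of the 34 tested members share exonic bases with a gene on the opposite strand, among them Pam16 (455 with Glis2), Mtx1 (759 with Gm43737 and 318 with Thbs3), Grpel1 (411 with Tada2b) and Tomm6os (1221 with Prickle4), and their reads are uncertain in the same way. Same-strand overlaps, which strand use cannot separate, include those of Tomm6 (given above) and Timm10b (376 with Gm45799).

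Of the remaining symbols, Tomm34 stood at 25.0, 24.3 and 26.4 FPKM in naive, 27.5, 26.9 and 35.3 in the spleen-primed and 34.0, 43.9 and 44.7 in the MLN-primed libraries. MLN-primed 1 lay below spleen-primed 3, so the groups overlapped, and the difference of 0.44 ± 0.13 (SE, limma adjusted p = 0.0262) was lost without spleen-primed 1, spleen-primed 2, MLN-primed 2 or MLN-primed 3 (adjusted p 0.0887 to 0.103). Timmdc1 had means of 8.05, 12.4 and 15.2 FPKM. It rose in both primed groups and was not called between them (0.28).

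**Figure D3:**
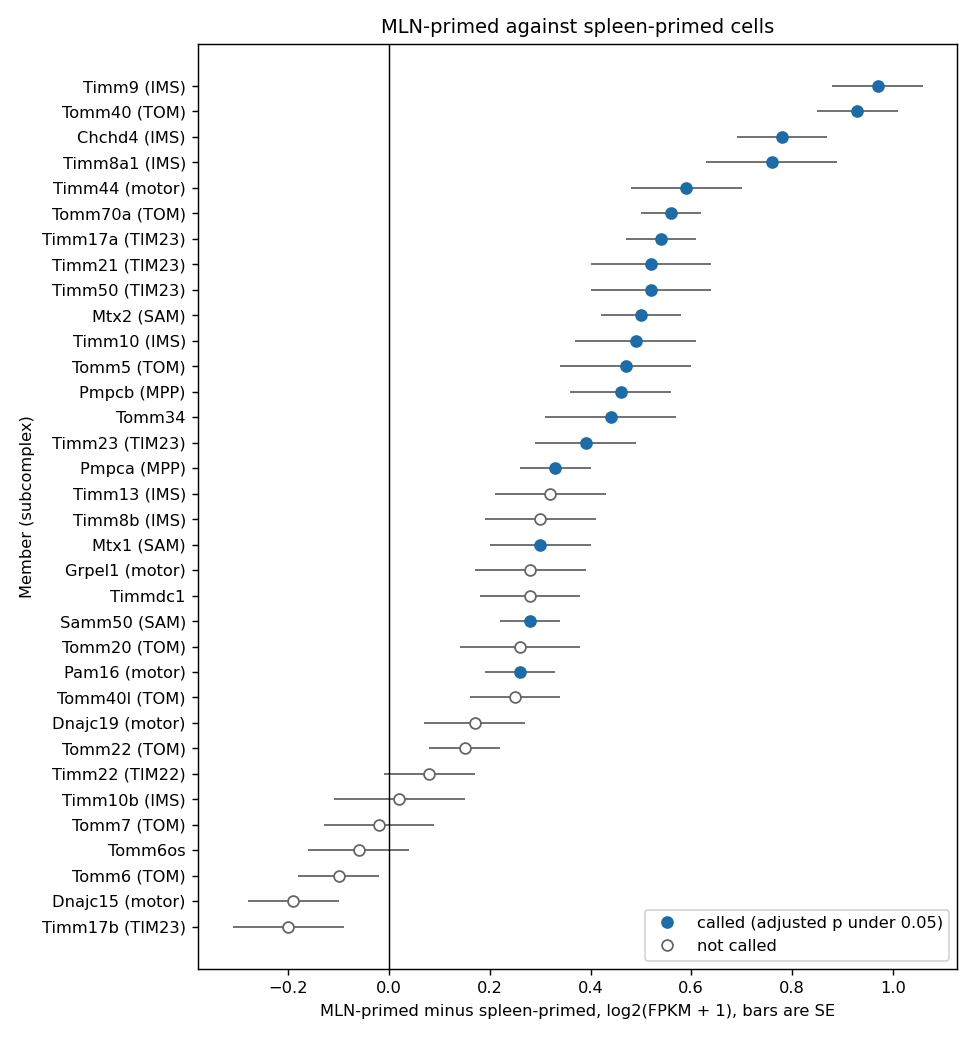
Difference of log2(FPKM + 1) between MLN-primed and spleen-primed cells for the 34 tested members in order of size, 3 libraries a group, with bars for the SE of the limma model. Filled points passed an adjusted p of 0.05: 19 members, all above 0, from Timm9 at 0.97 to Pam16 at 0.26.

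Sorted by all 3 comparisons, 14 members rose in both primed groups and again from spleen-primed to MLN-primed cells: Chchd4, Mtx1, Mtx2, Pam16, Pmpca, Pmpcb, Samm50, Timm17a, Timm23, Timm50, Timm8a1, Tomm40, Tomm5 and Tomm70a. Another 13 rose in both primed groups and were not called between them, among them Dnajc15, Dnajc19, Timm22, Tomm6 and Tomm22. Timm10, Timm21, Timm44 and Tomm34 were called only in the MLN-primed group against naive and were higher there than in spleen-primed cells, which is the tested difference. Shares of all tested genes with these patterns are not given here, so the counts describe the members alone. The calls of 13 of the 19 members between the primed groups were kept in all 19 settings: Chchd4, Mtx2, Pmpca, Pmpcb, Samm50, Timm17a, Timm21, Timm44, Timm50, Timm8a1, Timm9, Tomm40 and Tomm70a. The calls of Mtx1, Pam16, Timm10, Timm23, Tomm34 and Tomm5 were lost in at least 1. All of these but Pam16 were lost with no filter on low values (adjusted p 0.0564 to 0.135), Mtx1, Pam16, Timm23 and Tomm5 under median-of-ratios scaling (0.0593 to 0.12), and Mtx1 and Pam16 under quantile normalisation (0.135 and 0.0609).

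Several members form pairs of related genes, whose shares of the summed FPKM are set side by side here. FPKM is per length, but the length trend described above differed between libraries and groups. Pair members differ in length: Timm17a 7280 and Timm17b 2381 nt, Tomm40 1612 and Tomm40l 4712 nt, Timm8a1 1421 and Timm8b 518 nt. Dnajc15 has 6193 and Dnajc19 1351 nt, and Mtx1 1617 and Mtx2 2950 nt. Shares were not corrected for the trend, and its part in them was not tested. Timm17a made up 71.1, 69.7 and 70.4% of Timm17a plus Timm17b in naive libraries, 78.0, 74.4 and 80.7% in the spleen-primed libraries and 85.4, 86.5 and 84.5% in the MLN-primed libraries. The 3 groups did not overlap. Tomm40 held 75.6, 72.5 and 75.0%, then 78.3, 76.7 and 79.6%, then 85.2, 85.0 and 85.5% of Tomm40 plus Tomm40l in the same order of groups, again without overlap. Timm8a1 against Timm8b went in another order: its share was 43.1, 38.9 and 43.5% in naive libraries, 29.1, 28.0 and 29.2% in the spleen-primed libraries and 37.3, 36.7 and 34.2% in the MLN-primed libraries, lowest in spleen-primed cells.

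Mtx1 held 52.4 ± 3.79% of both metaxins in naive cells, 60.6 ± 1.60% in the spleen-primed group and 57.1 ± 2.03% in the MLN-primed group (SD, n = 3), and Dnajc15 held 89.0 ± 0.949, 90.0 ± 0.602 and 87.5 ± 0.645% of both J proteins. In two-sided exact permutation tests of the 15 shares compared, 13 reached p = 0.1, the smallest that 3 against 3 libraries allow (0.115 after Benjamini-Hochberg adjustment), so none could pass 0.05. The exceptions were Dnajc15 in spleen-primed against naive (exact p = 0.300) and Mtx1 in MLN-primed against naive (exact p = 0.200).

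**Figure D4:**
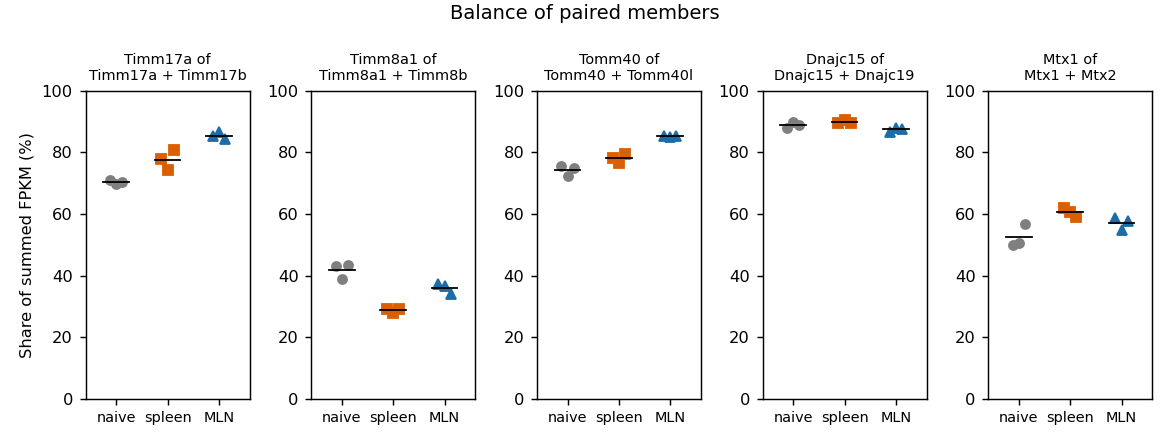
Share of the first named gene in the summed FPKM of each pair (percent), 1 point a library, with black lines at group means. Shares were not corrected for the length trend of the libraries. Timm17a and Tomm40 gain from naive over spleen-primed to MLN-primed cells (70.4, 77.7 and 85.5%, and 74.4, 78.2 and 85.2%), while Timm8a1 is lowest in spleen-primed cells (28.8%).

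The MLN-primed libraries did not contribute evenly. MLN-primed 1 was the highest of its group in 28 of 34 members and the highest of all 9 libraries in 25, and spleen-primed 3 was the lowest of its group in 21. Within their groups, the same libraries stand at the ends of the length trend and of Mki67, a proliferation gene. Mki67 was at 8.32 FPKM in MLN-primed 1 against 76.0 and 84.1 in the other MLN-primed libraries. In spleen-primed 3 it was at 87.1 FPKM against 13.4 and 22.4 in the other spleen-primed libraries. Leaving out both keeps spleen-primed libraries with Mki67 at 13.4 and 22.4 FPKM beside MLN-primed ones at 76.0 and 84.1. Their length slopes against the mean of all 9 libraries were -0.134 and -0.11 beside -0.0143 and -0.0509. In that fit the primed group, the Mki67 level and the length trend change together and cannot be told apart. Without both libraries 15 members were higher in MLN-primed than spleen-primed cells and 3 were lower: Timm17b (-0.36), Dnajc15 (-0.33) and Tomm6 (-0.22). The calls lost were Timm10 (0.37, adjusted p 0.051), Tomm5 (0.28, 0.0845), Pam16 (0.19, 0.085) and Mtx1 (0.20, 0.193). Of all tested genes, 24.7% were higher and 13.5% lower in that fit, so the members' count fell while the share of all genes called higher went up from 17.3%. The rise of Tomm70a from naive to spleen-primed did not pass there (0.15, adjusted p 0.0705). The summed level of all members was 1338 ± 44.2 FPKM in naive cells, 2198 ± 143 FPKM in the spleen-primed group and 2576 ± 223 FPKM in the MLN-primed group (SD, n = 3), and its log2 ratio between the primed groups went from 0.23 to 0.10 without them.

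Members have a median transcript length of 1613 nt, against 2781 nt for all tested genes. In members under 1000 nt, from 1000 to 2000 nt and of 2000 nt or more, the median difference between the primed groups was 0.30, 0.32 and 0.31, and 4 of 7, 7 of 13 and 8 of 14 were called higher. With each library's length trend removed, 22 members were higher and 0 lower between the primed groups, beside 19.4% and 14.5% of the 10087 tested genes with a transcript length. Against naive the same step left 24 and 30 members higher in spleen-primed and MLN-primed cells. Of the tested genes with a length, 43.6% were then higher and 31.9% lower in spleen-primed cells, and 46.5% and 32.4% in MLN-primed cells. Timm10 fell in spleen-primed cells in that fit (-0.37) and Timm9 fell further (-0.64).

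**Figure D5:**
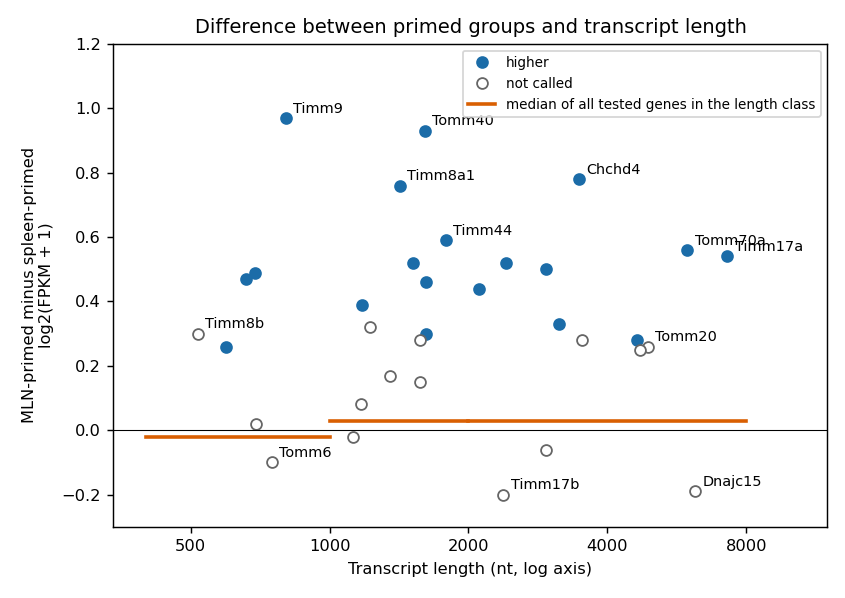
Difference of log2(FPKM + 1) between MLN-primed and spleen-primed cells against transcript length (nt, log axis) for the 34 tested members, filled where called higher, with orange lines at the median of all tested genes in 3 length classes. Medians of members are 0.30 to 0.32 in all 3 classes, and those of all tested genes -0.02 to 0.03.

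Other genes of the import route, a list of 44 chaperones, proteases, oxidative folding and cristae proteins written from general knowledge, had 41 tested genes. Of these 29 rose and 1 fell in spleen-primed cells against naive, 36 rose and 2 fell in MLN-primed cells, and 18 were higher and 2 lower in MLN-primed than spleen-primed cells. The shares of all tested genes called higher and lower were 43.1% and 32.7%, 45.5% and 33.2%, and 17.3% and 13.1% in these comparisons. Their median changes were 0.45, 0.86 and 0.22. Hspa9, the Hsp70 that drives the motor held by Timm44, had means of 73.5 ± 4.25 FPKM in naive cells, 75.3 ± 4.26 FPKM in the spleen-primed group and 161 ± 6.61 FPKM in the MLN-primed group (SD, n = 3). It was not called from naive to spleen-primed cells, at 0.03 ± 0.07 (SE, limma adjusted p = 0.665), and was higher in MLN-primed than spleen-primed cells by 1.09 ± 0.07 (SE, limma adjusted p = 1.64e-05). Timm44 and Timm21 had the same order of calls.

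Of the matrix chaperonin pair that folds imported proteins, Hspd1 rose from naive to spleen-primed cells and Hspe1 was not called there. Hspe1 stood at 220 ± 25.3, 218 ± 26.7 and 455 ± 77.1 FPKM and Hspd1 at 74.9 ± 5.77, 197 ± 12.6 and 503 ± 28.7 FPKM across the same order of groups (SD, n = 3). Hspd1 and Hspe1 were higher in MLN-primed than spleen-primed cells by 1.35 ± 0.08 (SE, limma adjusted p = 1.08e-05) and 1.05 ± 0.14 (SE, limma adjusted p = 5.37e-04). Chchd10, a small protein of the intermembrane space brought in by the Chchd4 route, rose from 6.07 to 17.0 and 35.3 FPKM. The genes lower in MLN-primed than spleen-primed cells were Pink1, the kinase that accumulates at TOM when import fails, at 65.5, 26.8 and 13.2 FPKM in that order, with a change of -0.96 ± 0.13 (SE, limma adjusted p = 5.37e-04), and Immp2l, an inner membrane peptidase subunit, at 1.54, 4.25 and 2.78 FPKM, with a change of -0.50 ± 0.16 (SE, limma adjusted p = 0.0401). The call of Immp2l was lost when any single library other than spleen-primed 3 or MLN-primed 1 was left out.

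Set beside other mitochondrial gene groups, the import members had a smaller median change from naive and a median difference between the primed groups like that of the mitochondrial ribosome. The 76 tested mitochondrial ribosomal proteins had medians of 0.79, 1.10 and 0.29 in spleen-primed against naive, MLN-primed against naive and MLN-primed against spleen-primed cells. The 78 tested genes of the respiratory chain and ATP synthase had medians of 1.0, 1.02 and 0.04. Between the primed groups, 45 of 76 ribosomal proteins were higher and 0 lower (59.2% higher), 10 of 78 respiratory chain genes were higher and 6 lower (12.8% and 7.69%), and 19 of 34 import members were higher (55.9%). The difference between these groups of genes was not tested.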

How the data were processed

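RNA purified on RNeasy Plus Micro columns was sequenced as 9 TruSeq Stranded mRNA libraries, per the labels' protocols. The authors deposited a table of FPKM per gene, made with TopHat and Cufflinks on mm10, per the submitters' processing notes; tool versions and the use of strand were not stated. The unit corrects for transcript length and library size, does not keep read numbers, and lets highly expressed genes shift the rest. Depth was therefore estimated from the steps of low values, at 19200000 to 31400000 fragments, and no counting interval is given. A deposited transcript table was identical to the gene table and was not used. Of 24067 rows, 131 without a symbol (0.0479% of the FPKM) were left out.

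The 10185 genes that reached 1 FPKM in 3 or more libraries were fitted as log2(FPKM + 1) in 1 limma-trend model (limma 3.58.1, R 4.3.3) over the 3 groups of 3 libraries, with two-sided tests, Benjamini-Hochberg adjustment over all tested genes and a threshold of 0.05. This scale understates changes of low genes. Shares of paired genes were tested by exact permutation in Python 3.11.15 with numpy 2.4.6. Transcript lengths and overlaps came from GENCODE vM21, gene positions and promoters from RefSeq. The fit was also run on simulated data, with values drawn independently for each gene and library. That setting lacks the shared deviations of libraries given below, and no conclusion is drawn from it. The members, lists and tests were chosen with earlier results of these data known. Values in every library are given for members that passed between the primed groups, for the 6 largest rises and the 4 lowest changes against naive, and for the pairs. Groups and replicate numbers came from the titles, which do not say what a number shares. Deviations of same-numbered libraries correlated at 0.16, 0.116 and 0.236 between naive and spleen-primed libraries. They correlated at 0.145, -0.241 and 0.116 between naive and MLN-primed libraries, and at 0.645, -0.24 and 0.485 between the primed groups. Spleen-primed 3 and MLN-primed 2, with unlike numbers, correlated at 0.512. The main fit used no pairs, and the replicate block treated numbers as shared in all 3 comparisons. Alternatives were a pseudocount of 0.1, no filter or a minimum of 5 FPKM, median-of-ratios or quantile scaling, robust variance, a replicate block, only the libraries compared, each library left out, a fit lacking both spleen-primed 3 and MLN-primed 1, and removal of the length trend.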

Additional observations from a re-analysis of the deposited data

Results flagged for a closer look

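Timm9 was taken up because its effects against naive had opposite signs in the 2 primed groups, -0.23 after priming in the spleen and 0.74 after priming in the MLN, on the log2(FPKM + 1) scale. The difference itself was tested by limma and was 0.97 ± 0.09 (SE, adjusted p = 1.10e-04), with all 3 MLN-primed libraries above all 3 spleen-primed ones. Timm9 shares 49 exonic bases with Tomm20l on the opposite strand, and Tomm20l was listed at 0 in all 9 libraries.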

How the results depend on the processing

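Across 19 alternative settings, calls were kept throughout for 15 of 28 members in spleen-primed against naive, 25 of 33 in MLN-primed against naive and 13 of 19 between the primed groups. Where values below changed, the cause was not tested. Settings for summed FPKM were chosen after seeing the data.

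Members called lower in spleen-primed against naive numbered 0 without a filter and in fits of only the libraries compared, 2 with the length trend removed, 3 under quantile normalisation (15 higher) and 0 to 1 with a library left out. Of all tested genes, 16.0%, 32.8%, 31.9% and 40.0% were lower in these settings, in that order, and 29.4% to 33.9% with a library left out. Between the primed groups 3 members were lower without spleen-primed 3 and MLN-primed 1, beside 13.5% of all tested genes. Partner genes called lower in spleen-primed against naive numbered 2 without a filter, under median-of-ratios scaling, with only the libraries compared and without both libraries, 3 with the length trend removed, 7 under quantile normalisation and 1 to 2 with a library left out; in MLN-primed against naive 1 at 5 FPKM and 5 under quantile normalisation; and between the primed groups 1 with a pseudocount of 0.1, no filter, 5 FPKM or only the libraries compared, 4 without both libraries and 1 to 2 with a library left out. The log2 ratio of summed FPKM was 0.59 and 0.24 under median-of-ratios and quantile scaling in spleen-primed against naive, 0.77 and 0.42 in MLN-primed against naive, and 0.10 between the primed groups without both libraries.

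Signs turned as follows in spleen-primed against naive. Under median-of-ratios scaling Timm21 was -0.11, Timm44 -0.07 and Timm10 -0.02. Under quantile normalisation Tomm70a was -0.17, Tomm22 -0.01, Timm21 -0.16, Timm44 -0.24, Tomm7 -0.10, Tomm34 -0.09 (also its summed ratio, -0.09) and Timm10 -0.16. With the length trend removed Tomm20 was 0.21, Pam16 -0.10, Timm21 -0.03, Timm44 -0.09 and Timm10 -0.37. Without both libraries Tomm20 was 0.10 and Timm44 -0.06. With a library left out Timm44 was -0.02 (naive 1) and -0.06 (spleen-primed 3), Tomm20 0.05 (naive 2) and 0.10 (spleen-primed 3), and Timm21 -0.04 (naive 2), -0.04 (naive 3) and -0.06 (spleen-primed 1); over all libraries left out, the ranges were -0.06 to 0.11 for Timm44, -0.06 to 0.08 for Timm21 and -0.07 to 0.10 for Tomm20. In MLN-primed against naive, Tomm20 and Tomm7 were both -0.18 under quantile normalisation. Between the primed groups Timm10b was -0.03 under median-of-ratios scaling, -0.04 under quantile normalisation, -0.07 without spleen-primed 3, -0.10 without MLN-primed 1 and -0.19 without both; Timm22 was -0.01 without MLN-primed 1 and -0.05 without both; and Tomm7 was 0.03, 0.02 and 0.05 without spleen-primed 1, spleen-primed 2 and MLN-primed 2. With a library left out these ranged from -0.10 to 0.16, from -0.01 to 0.14 and from -0.13 to 0.05.

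With the replicate block, 27 members were higher and 1 lower in spleen-primed against naive, 33 and 0 in MLN-primed against naive, and 20 and 0 between the primed groups, where Timm8b and Timm13 passed (adjusted p 0.021 and 0.0482, limma) and Mtx1 did not (0.0666). The block changed no other call of a member. Of all tested genes, 44.0% were higher and 33.9% lower with it in spleen-primed against naive. The shares were 46.3% and 34.3% in MLN-primed against naive, and 19.1% and 14.1% between the primed groups. The block was applied in all 3 comparisons, though same-numbered libraries are not known to share more than a number. With 3 libraries a group, shares of paired genes cannot pass an exact test, and the direction of every share difference was kept when any library was left out.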
